A study of Oryza sativa with 6 samples.

Results

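The genes described here are those of the plant cell wall that the deposited rice annotation describes as an expansin, a cellulose synthase or cellulose synthase-like protein, or an enzyme or protein of xyloglucan or xylan. The words expansin, cellulose synthase, xyloglucan and xylan in a feature's description chose 70 of the 91080 features of the table. They were 25 expansin A, 15 expansin B and 5 expansin-like genes, 9 cellulose synthase (CESA) genes, 10 cellulose synthase-like (CSL) genes, 3 other xyloglucan genes and 3 xylan genes. RNA was read in 6 libraries of developing rice (Oryza sativa) seeds at 15 DAF, in the filling stage, from paddy-grown plants of a pair of near-isogenic lines, bred to be alike outside a chosen segment. One line is NIL-gaf1, whose genotype is given as mutant (titles F1287gif2), and the other is NIL-GAF1, given as wild type (titles F1288GIF2), with 3 libraries each. The labels name neither the altered sequence nor the plants behind each library, so the p-values reflect variation among these libraries alone, which may be technical.

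The wall of a growing plant cell is a network of cellulose fibres held in softer polysaccharides. Cellulose is spun at the cell surface by complexes of CESA subunits, with separate sets of subunits for the thin primary wall of growing cells and for the thick secondary wall laid down after growth. Expansins loosen the bonds between wall polymers without cutting them and so let the wall stretch, and grasses carry an enlarged beta (expansin B) branch of the family. The CSL enzymes make the backbones of the softer polymers, such as xyloglucan and mixed-linkage glucan. In a cereal grain the walls of the starchy endosperm are thin.

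Total counts ranged from 17236796 to 25402680 per library, and a count of 0 allows up to 0.0753 to 0.102 normalized CPM in mutant and 0.205 to 0.244 in wild-type libraries (3 counts per library, counting error only). Levels are normalized CPM, counts relative to a library total scaled by TMM, which assumes that the typical gene does not differ between libraries. The values of a line's 3 libraries are listed by library number. TMM factors were 1.88, 1.57 and 1.16 in the mutant libraries against 0.715, 0.627 and 0.652 in wild type. The same normalized level therefore gives more counts in a mutant library, and raw counts below do not compare directly between the lines. The libraries differed strongly in storage protein transcripts, and the mutant libraries differed among themselves. The 15 genes described as glutelin or prolamin, the storage proteins of the starchy endosperm, took 0.357%, 6.73% and 20.1% of all counts in the mutant against 32.8%, 39.0% and 34.7% in wild type. Of the 13 that were tested 1 was called, lower in the mutant, and PROLM7 at OS05G0329100 had no counts. Of 7 oleosin, dehydrin and late embryogenesis genes, markers of embryo and aleurone, 6 were called lower, with a summed level of 282 to 1342 normalized CPM in the mutant and 2563 to 3026 in wild type. None of 4 chlorophyll a-b binding genes, markers of the green pericarp, was called by edgeR (0 at an unadjusted p under 0.05), and their sums were 617 to 1169 and 758 to 984. The part of these tissue differences in the results below was not tested. In such bulk samples, fewer cells of a type and less RNA per cell cannot be told apart.

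Expansin transcripts of both main branches were mostly higher in the mutant line where they were measurable. Of the 9 cellulose synthase (CESA) genes 3 were called lower and none higher. Of the 70 genes 38 passed the filter on low counts and were tested (edgeR quasi-likelihood test, Benjamini-Hochberg adjustment over 22937 features, called at an adjusted p under 0.05), the source of the adjusted p-values below unless another test is named. Of these, 14 rose, 4 fell and 20 did not pass. Over all tested features 31.2% were called, 15.8% higher and 15.4% lower in the mutant. At least 2-fold higher were 13 of the 14 (9.74% of all tested features), and 1 of the 4, CESA4, was at least 2-fold lower (9.09%). The 14 that rose were EXPA2, EXPA4, EXPA7, EXPA10, EXPA13, EXPB3, EXPB4, EXPB6, EXPB11, EXLA3, CSLC7, CSLD4, XTH8 and the xyloglucan galactosyltransferase GT19, and the 4 that fell were CESA2, CESA4, CESA5 and EXPA5. The mutant libraries lay wholly above wild type in 17 tested members and wholly below in 6, against 25.3% and 23.8% of all tested features. The median log2 fold change over the genes that passed the filter was 1.48 for expansin A, 2.25 for expansin B and -0.073 for expansin-like genes. It was 0.056 for CESA, 0.30 for CSL, 0.85 for xyloglucan and -0.91 for xylan genes, beside 0.059 for all tested features.

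These directions are relative to the typical gene. With scaling by total counts alone the median of all tested features moved from 0.059 to 1.27, and the calls of the members became 30 higher and none lower, when 71.9% of all features were called higher and 3.76% lower. All 14 rises were called higher under that scaling too, which moves most genes up and so is no separate check of them. None of the 4 falls was called lower: CESA5 was at 0.44, EXPA5 at 0.19 and CESA4 at -0.30 on the log2 scale, none of them called, and CESA2 was called higher at 0.72 (adjusted p = 0.016). With each of the 6 libraries left out in turn, 11 of the 14 rises (not EXPB6, EXPB11 and XTH8) and 1 of the 4 falls, EXPA5, were called every time. The members called higher and lower numbered 15 and 5 (all features 13.9% and 14.1%) without mutant library 1, 13 and 1 (all features 8.61% and 8.63%) without 2 and 17 and 8 (all features 17.0% and 18.0%) without 3. They numbered 11 and 2 (all features 9.21% and 9.73%) without wild-type library 1, 13 and 4 (all features 11.3% and 11.2%) without 2 and 13 and 1 (all features 10.4% and 10.3%) without 3. They were 9 and 1 (all features 7.0% and 7.67%) at an adjusted p under 0.01, 16 and 3 (all features 10.2% and 6.37%) with no filter and 15 and 4 (all features 20.6% and 18.8%) at a mean of at least 5 CPM. They were 19 and 6 (all features 16.0% and 13.3%) with DESeq2, 14 and 4 (all features 15.1% and 15.9%) with its size factors in edgeR, 27 and 0 (all features 71.0% and 4.23%) with limma on log2(FPKM + 1) and 15 and 3 (all features 13.1% and 13.3%) with the replicate number as a block. Of the 38 tested members 35 were above the filter level of 0.458 CPM in all 3 wild-type libraries. The others were EXPB11 and EXPB14, above it in 1 wild-type library each, and RIXI, above it in 2.

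**Figure D1:**
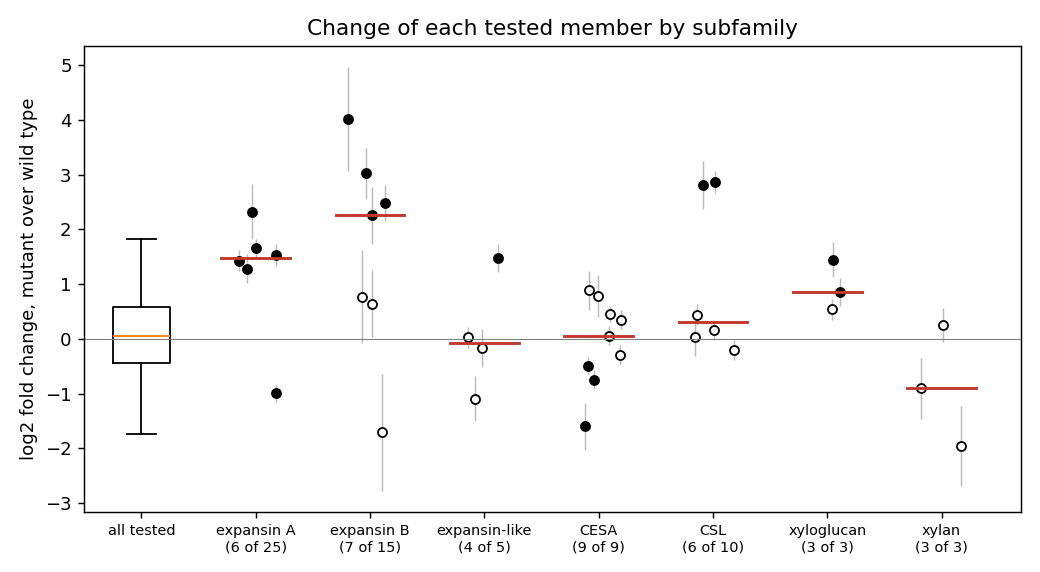
Log2 fold change (mutant over wild type, y axis) of each tested member by subfamily (x axis, with the number tested of the number in the subfamily); filled points passed the test, open points did not, grey bars are 1 SE and red lines are subfamily medians. The box at the left shows all 22937 tested features (median, quartiles, and whiskers at percentiles 5 and 95), and expansin A and B have medians of 1.48 and 2.25 beside 0.059 for all features.

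Alpha-expansins (expansin A) are the expansins first tied to acid-induced wall extension. Among 25 genes, 6 passed the filter, and 5 of those rose and 1 fell (100% called, beside 31.2% of all tested features). EXPA4 (OS05G0477600, chromosome 5, 23495654 to 23497572) stood at 46.7, 36.8 and 49.6 normalized CPM in the mutant libraries against 12.6, 14 and 19.4 in wild type. It was 2.89-fold higher (log2 fold change 1.53 with SE 0.20, adjusted p = 0.0015), and all mutant libraries lay above all wild-type libraries. EXPA10 (OS04G0583500, chromosome 4, 29485142 to 29488557) was at 19, 19.1 and 20.3 in the mutant libraries against 5.36, 6.0 and 7.18 in wild type, a 3.14-fold rise (log2 fold change 1.65 with SE 0.16, adjusted p = 5.1e-04). The mutant libraries of EXPA10 differed little from each other, while their storage protein shares differed widely, and a link between these was not tested. EXPA13 (OS02G0267200, chromosome 2, 9551864 to 9553485) was as even within the mutant, at 15.3, 15.3 and 17.1 in the mutant libraries against 6.9, 6.4 and 4.45 in wild type (log2 fold change 1.43 with SE 0.20, adjusted p = 0.0018). EXPA24, its neighbour within 23639 bases of chromosome 2, had 2 counts in 1 wild-type library and none elsewhere.

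EXPA7 (OS03G0822000, chromosome 3, 34507597 to 34511279) stood at 58.8, 54.3 and 69.7 normalized CPM in the mutant libraries against 15.5, 25.8 and 34 in wild type (log2 fold change 1.28 with SE 0.27, adjusted p = 0.0093). Its interval in the table overlaps OS03G0821900, which had 4671 counts over the 6 libraries beside 7444 for EXPA7, and since it is not stated whether counting used strand the level of EXPA7 is uncertain. EXPA2 (OS01G0823100, chromosome 1, 35145517 to 35147323) had the largest fold change of the tested expansin A genes and the widest spread, at 47.7, 34.8 and 10.3 in the mutant libraries against 5.93, 5.19 and 7.46 in wild type (a 4.98-fold rise, log2 fold change 2.32 with SE 0.50, adjusted p = 0.011). Mutant library 3 was close to wild type for EXPA2, while mutant libraries 1 and 2 were far above it.

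EXPA5 (OS02G0744200, chromosome 2, 31220568 to 31222172) was the expansin that fell. It was at 7.86, 9.22 and 8.99 normalized CPM in the mutant libraries against 19.2, 15.7 and 17.1 in wild type (log2 fold change -1.0 with SE 0.15, adjusted p = 0.0029), with all mutant libraries below all wild-type libraries. Per length, using FPKM divided by the TMM factor, EXPA5 had the highest level of the expansin A genes in wild type, 6.13 ± 0.519 in the mutant and 12.3 ± 1.25 in wild type (SD, n = 3). EXPA4 had the highest in the mutant by the same measure, 28.7 ± 4.36 in the mutant and 9.92 ± 2.33 in wild type. The gene that led the family by this mean in wild type was thus at less than the level of EXPA2, EXPA4, EXPA7 and EXPA13 in the mutant. In wild-type library 3, however, EXPA4 was above EXPA5 per length (12.6 against 12.1). By normalized CPM, which is not scaled to length, EXPA7 had the highest wild-type mean (25.1 against 17.4 for EXPA5).

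Beta-expansins (expansin B) include the group 1 grass pollen allergens and act on the walls of grasses. Of 15 genes 7 passed the filter, and 4 of those rose and 3 did not pass the test (57.1% called, beside 31.2% of all tested features). EXPB4 (OS10G0556100, chromosome 10, 21858853 to 21861259) was the expansin with the highest length-scaled level in the mutant. It was at 441, 599.7 and 1001 normalized CPM in the mutant libraries against 123, 127 and 115 in wild type. The level was 5.6-fold higher (log2 fold change 2.48 with SE 0.33, adjusted p = 0.0015). Mutant library 3, the mutant library with the most storage protein transcript, had the highest EXPB4, and a link between these was not tested. Its length-scaled level was 156 ± 66.3 in the mutant and 27.9 ± 1.44 in wild type (SD, n = 3).

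EXPB3 (OS10G0555900, chromosome 10, 21847828 to 21849722) stood at 261, 169.5 and 62.6 normalized CPM in the mutant libraries against 20.1, 23.4 and 17.4 in wild type, a 8.1-fold rise (log2 fold change 3.02 with SE 0.47, adjusted p = 0.003). EXPB3 was highest in mutant library 1 and lowest in mutant library 3, the reverse of EXPB4. As a ratio of FPKM, which no scaling of libraries changes, EXPB3 per EXPB4 was 1.19, 0.57 and 0.126 in the mutant libraries against 0.328, 0.372 and 0.307 in wild type. The wild-type libraries fell inside the mutant range, so the balance of the 2 genes did not separate the lines.

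EXPB6 (OS10G0555600, chromosome 10, 21830158 to 21831694) stood at 17.7, 12.3 and 4.6 normalized CPM in the mutant libraries against 1.22, 3.08 and 2.94 in wild type, a 4.77-fold rise (log2 fold change 2.25 with SE 0.53, adjusted p = 0.015), with an adjusted p of 0.055 without wild-type library 1. EXPB6, EXPB2, EXPB3 and EXPB4 lie in this order within 31102 bases of chromosome 10 (21830158 to 21861259), where the 2 other features of the table had no counts. The 3 that were tested all rose, beside 15.8% of all tested features, and EXPB2, which lies among them, had 1 count in all 6 libraries. Their levels were unequal, and in wild type the length-scaled levels were 1.91 for EXPB6, 9.41 for EXPB3 and 27.9 for EXPB4. Reads of similar neighbours may have been split between them, which was not measured.

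EXPB11 (OS02G0658800, chromosome 2, 26648837 to 26650582) had the largest log2 fold change of the members, and it was near the filter level in wild type. It had 1117, 558 and 113 counts in the mutant libraries against 5, 30 and 2 in wild type. Its level was 28, 14.8 and 3.85 normalized CPM in the mutant libraries against 0.406, 2.43 and 0.137 in wild type (log2 fold change 4.01 with SE 0.95, adjusted p = 0.015). The log2 fold change was 5.86 without wild-type library 2 and 3.28 without mutant library 1, and the call was lost on leaving out wild-type library 1 (adjusted p = 0.067) or 3 (0.053). EXPB14, its neighbour within 11959 bases of chromosome 2, was at 2.18, 0.795 and 0.17 normalized CPM in the mutant libraries against 0.406, 0.405 and 1.03 in wild type and was not called (log2 fold change 0.77 with SE 0.85, adjusted p = 0.52).

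The remaining tested expansin B genes overlapped between the lines. EXPB15 (OS04G0552000, chromosome 4, 27645701 to 27647185) had 3, 17 and 141 counts in the mutant libraries against 89, 37 and 98 in wild type. It was not called (log2 fold change -1.71 with SE 1.07, adjusted p = 0.25), but without mutant library 3 it was called lower (log2 fold change -4.44, adjusted p = 0.002). EXPB8 was at 3.72, 1.3 and 0.647 normalized CPM in the mutant libraries against 1.22, 1.13 and 1.3 in wild type (log2 fold change 0.64 with SE 0.62, adjusted p = 0.46), and without mutant library 1 its log2 fold change was -0.31. Summed over all 15 genes, expansin B was at 755, 799 and 1078 normalized CPM in the mutant libraries against 154, 160.5 and 144 in wild type. EXPB3 and EXPB4 made up most of these sums, and the other 13 genes came to 52.1, 29.7 and 14.3 in the mutant libraries against 10.6, 10.05 and 12.1 in wild type.

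**Figure D2:**
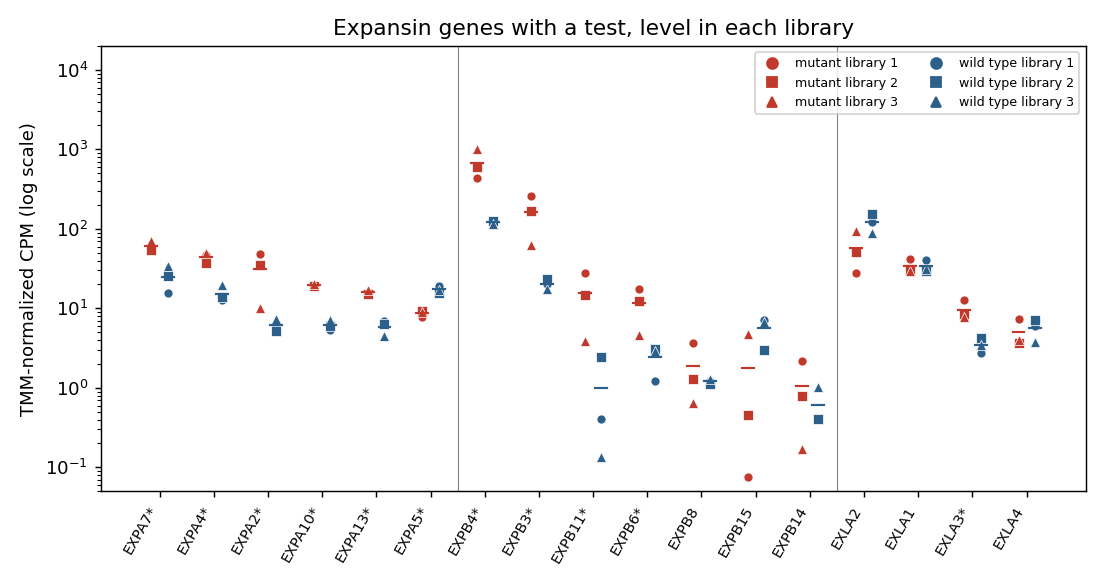
TMM-normalized CPM (y axis, log scale) of the 17 tested expansin genes in each of the 6 libraries, for expansin A, expansin B and expansin-like genes from left to right; red marks are mutant and blue marks wild-type libraries, short lines are line means, and an asterisk marks a gene that passed the test. EXPB4 runs from 441 to 1001 in the mutant and from 115 to 127 in wild type, whereas EXPA5 is lower in all mutant libraries.

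Expansin-like genes share the domain layout of expansins, but wall-loosening activity has not been established for them. Of 5 genes 4 passed the filter, 1 rose and 3 were not called (25% called, beside 31.2% of all tested features). EXLA3 (OS07G0475400, chromosome 7, 17162250 to 17165698) stood at 12.6, 8.61 and 7.84 normalized CPM in the mutant libraries against 2.76, 4.21 and 3.49 in wild type, a 2.77-fold rise (log2 fold change 1.47 with SE 0.26, adjusted p = 0.0048). EXLA2 (OS10G0542400, chromosome 10, 21179551 to 21181282) was the most abundant expansin-family gene of wild type per length, with 32.1 ± 18.5 in the mutant and 68.6 ± 18.5 in wild type (SD, n = 3). In normalized CPM it was at 27.7, 51.7 and 93.1 in the mutant libraries against 123, 156 and 89.5 in wild type, and mutant library 3 overlapped wild type (log2 fold change -1.10 with SE 0.41, adjusted p = 0.076). Without mutant library 3 it was called lower (log2 fold change -1.65, adjusted p = 0.0064), as it was by DESeq2 (0.039).

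EXLA1 was at 42.3, 31.2 and 29.5 normalized CPM in the mutant libraries against 40.5, 29.7 and 30.9 in wild type and EXLA4 at 7.46, 3.63 and 4.02 in the mutant libraries against 6.09, 7.21 and 3.83 in wild type. Both overlapped between the lines, with log2 fold changes of 0.028 (adjusted p = 0.93) and -0.17 (adjusted p = 0.74). EXLB1 was not tested, with 4, 14 and 5 counts in the mutant libraries and none in wild type.

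Because the scaling of these libraries moves every gene, the makeup of the wall transcripts was also set out as ratios within a library, which do not depend on it. These ratios were chosen after the values had been seen and are given without a test. Expansin B took 60.1%, 60.7% and 61.6% of all expansin FPKM in the mutant libraries against 24.9%, 23.6% and 27.1% in wild type. Expansin-like genes took 15.6%, 16.8% and 19.8% in the mutant libraries against 56%, 58.2% and 47.1% in wild type, and the share of expansin A overlapped between the lines. By FPKM the expansin-like branch thus held the largest of the 3 shares in each wild-type library and expansin B the largest in each mutant library. By normalized CPM, which is not scaled to length, expansin B exceeded the expansin-like branch in wild-type library 3 (144 against 128). EXLA2 alone took 3.53%, 7.31% and 11.8% of expansin FPKM in the mutant libraries against 34.5%, 41.4% and 28.4% in wild type. The shares of the 3 branches were close among the mutant libraries even though EXPB3 and EXPB4 exchanged places between them.

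Set against cellulose synthase, the summed FPKM of all 45 expansins per summed FPKM of the 9 CESA genes was 2.5, 2.33 and 2.81 in the mutant libraries against 1.15, 1.18 and 0.941 in wild type. The mean ratio was 2.33-fold higher in the mutant, and 1.71-fold higher when EXPB4 was left out. For expansin A per CESA the values were 0.608, 0.524 and 0.524 in the mutant libraries against 0.219, 0.215 and 0.242 in wild type, a 2.45-fold difference of means. For expansin B per CESA they were 1.5, 1.42 and 1.73 in the mutant libraries against 0.286, 0.28 and 0.255 in wild type, a 5.66-fold difference. In each of these ratios the lines did not overlap.

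**Figure D3:**
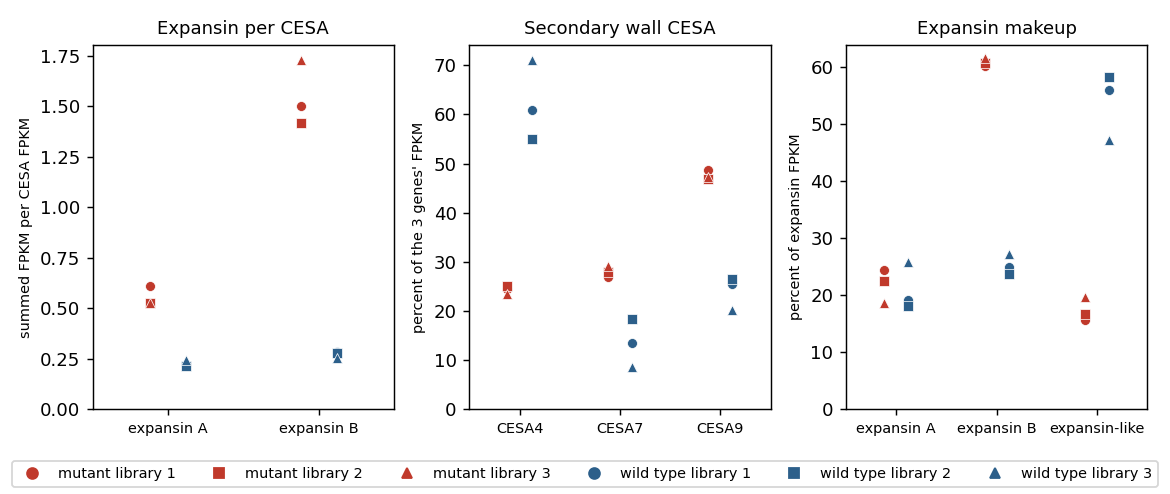
Ratios within each library that do not depend on the scaling between libraries: summed FPKM of expansin A and B per summed CESA FPKM (left), the percentage of the FPKM of CESA4, CESA7 and CESA9 held by each (middle), and the percentage of all expansin FPKM held by each branch (right). Red marks are mutant and blue marks wild-type libraries; expansin B per CESA is 1.42 to 1.73 in the mutant and 0.255 to 0.286 in wild type.

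The CESA genes encode the catalytic subunits of the cellulose synthase complex. All 9 passed the filter, 3 fell and 6 were not called (33.3% called, beside 31.2% of all tested features). The summed level was 919, 909 and 853 normalized CPM in the mutant libraries against 974, 996 and 1039 in wild type. Relative to the typical gene their median of 0.056 was close to that of all features. In rice CESA4, CESA7 and CESA9 serve the secondary wall, and a loss of any of them makes the stems brittle. The other 6, CESA1, CESA2, CESA3, CESA5, CESA6 and CESA8, are grouped here as primary wall genes.

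The secondary wall genes did not move together. CESA4 (OS01G0750300, chromosome 1, 31422946 to 31428670) stood at 45.1, 37.8 and 14.2 normalized CPM in the mutant libraries against 108, 60.8 and 127 in wild type, a 3.04-fold fall (log2 fold change -1.60 with SE 0.43, adjusted p = 0.025). CESA7 (OS10G0467800, chromosome 10, 17262050 to 17266561) was at 37, 31.5 and 13.2 in the mutant libraries against 17.8, 15.2 and 11.5 in wild type, with overlap between the lines (log2 fold change 0.88 with SE 0.36, adjusted p = 0.096). CESA9 (OS09G0422500, chromosome 9, 15281320 to 15285893) was at 60.2, 47.4 and 19.1 in the mutant libraries against 30.2, 19.6 and 24.2 in wild type, also overlapping (log2 fold change 0.78 with SE 0.38, adjusted p = 0.15). All 3 were at their lowest of the mutant in library 3, and without that library CESA7 and CESA9 were called higher (log2 fold change 1.18, adjusted p = 0.0031, and 1.10, adjusted p = 0.0044). CESA7 was also called with the replicate number as a block (adjusted p = 0.041) and by DESeq2 (0.044). The call of CESA4 was lost when mutant library 2 (adjusted p = 0.064), wild-type library 1 (0.075) or 3 (0.08) was left out and with no low-count filter (0.075).

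Within a library, the share of CESA4 in the FPKM of these 3 genes was 24.4%, 25.1% and 23.5% in the mutant libraries against 61%, 55% and 71.1% in wild type. The mutant shares lay within 2 percentage points of each other, although the summed level of the 3 genes ran from 46.4 to 142 normalized CPM in the mutant. CESA4 per CESA7 plus CESA9 was 0.323, 0.334 and 0.308 in the mutant libraries against 1.56, 1.22 and 2.46 in wild type, a 5.43-fold difference of means with no overlap. The ratio of CESA7 to CESA9 overlapped between the lines, at 0.552, 0.597 and 0.62 in the mutant libraries against 0.529, 0.695 and 0.428 in wild type. The difference in the secondary set was therefore between CESA4 and the other 2 genes, and as a ratio within a library it does not depend on the scaling.

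Among the primary wall genes CESA5 (OS03G0837100, chromosome 3, 35177757 to 35183273) stood at 67, 81.9 and 89.6 normalized CPM in the mutant libraries against 120.2, 135 and 145 in wild type, a 1.68-fold fall (log2 fold change -0.74 with SE 0.17, adjusted p = 0.013). CESA2 (OS03G0808100, chromosome 3, 33780015 to 33786259) was at 104, 118 and 109 in the mutant libraries against 146, 163 and 154 in wild type (log2 fold change -0.49 with SE 0.15, adjusted p = 0.04). Both were below wild type in every mutant library. CESA2 did not pass with the replicate block (adjusted p = 0.096), with no low-count filter (0.14) or without any single library other than mutant library 3 (adjusted p 0.064 to 0.11). The call of CESA5 was lost when mutant library 2 (0.058) or wild-type library 3 (0.055) was left out.

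CESA6 and CESA8 lay on the other side, above wild type in every mutant library but not called. Over all tested features 25.3% lay wholly above wild type and 23.8% wholly below. CESA6 was at 66.4, 71.4 and 83.5 normalized CPM in the mutant libraries against 47.9, 56.3 and 57.7 in wild type (log2 fold change 0.45 with SE 0.15, adjusted p = 0.054). CESA8, the CESA gene with the highest mean level per length in both lines, was at 212, 176 and 197 in the mutant libraries against 133, 160.1 and 166 in wild type (log2 fold change 0.35 with SE 0.18, adjusted p = 0.16). In wild-type library 1, however, CESA1 was above CESA8 per length (35.4 against 33.3). CESA1 was at 163, 202 and 207 in the mutant libraries against 234, 238 and 228 in wild type, below wild type in every mutant library but not called (log2 fold change -0.29 with SE 0.18, adjusted p = 0.25). CESA3 was at 163, 142 and 122 in the mutant libraries against 137, 148 and 126 in wild type, with overlap (log2 fold change 0.056 with SE 0.17, adjusted p = 0.83). As shares of the FPKM of the 6 genes, CESA8 held 37.6%, 31.3% and 33.6% in the mutant libraries against 23.6%, 25.6% and 27% in wild type. CESA5 held 7.63%, 9.32% and 9.86% in the mutant libraries against 13.7%, 13.8% and 15.1% in wild type, and of the 6 shares that of CESA3 alone overlapped between the lines. The 6 shares are parts of the same total and so depend on one another.

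**Figure D4:**
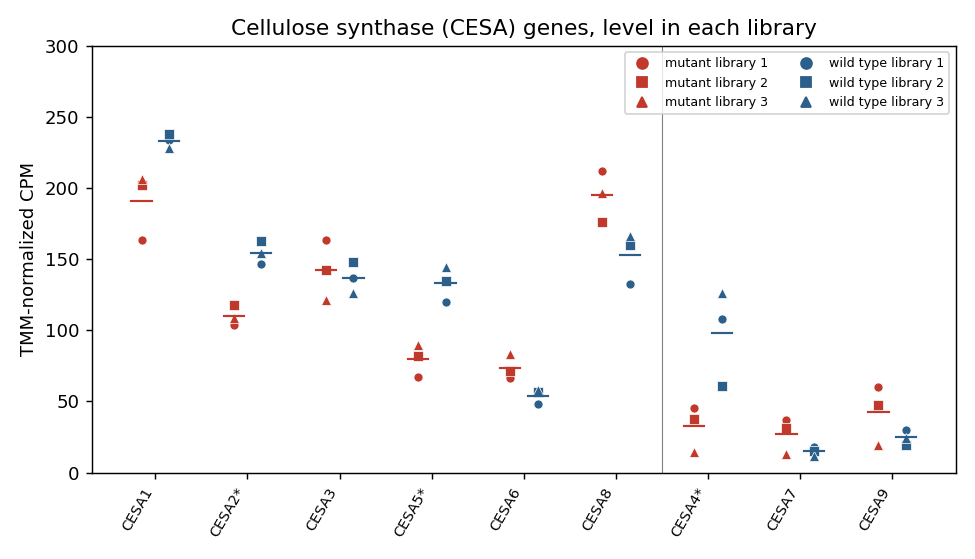
TMM-normalized CPM (y axis) of the 9 CESA genes in each library; the genes right of the line are those of the secondary wall, red marks are mutant and blue marks wild-type libraries, short lines are line means, and an asterisk marks a gene that passed the test. CESA1, CESA2, CESA4 and CESA5 lie below wild type in all mutant libraries, and CESA6 and CESA8 above (of all tested features 23.8% lie wholly below and 25.3% wholly above).

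Of the 10 CSL genes 6 passed the filter, 2 rose and 4 were not called (33.3% called, beside 31.2% of all tested features). The CSLF and CSLA branches of the family (mixed-linked glucan and glucomannan synthases) are described by other words. They are not among these 10 and come with the other wall genes below. CSLC7 (OS05G0510800, chromosome 5, 25300845 to 25304673), of the branch that makes the xyloglucan backbone, was at 18.2, 20.6 and 17.5 normalized CPM in the mutant libraries against 2.03, 2.67 and 3.01 in wild type. It was 7.26-fold higher (log2 fold change 2.86 with SE 0.20, adjusted p = 1.8e-04) and had the smallest adjusted p of the members, with a narrow spread in both lines. CSLD4 (OS12G0555600, chromosome 12, 22602934 to 22607307), whose loss narrows the leaves of rice, was at 18.3, 10.9 and 7.33 in the mutant libraries against 1.87, 2.43 and 0.958 in wild type, a 7.03-fold rise (log2 fold change 2.81 with SE 0.44, adjusted p = 0.0029). Its libraries were more scattered, but every mutant library exceeded every wild-type library.

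The other tested CSL genes overlapped between the lines. CSLD2 (OS06G0111800, chromosome 6, 660148 to 665391) had the highest mean level per length of the CSL genes chosen here. CSLF6, which the chosen words left out, had a higher one (22.7 against 8.79 for CSLD2 over all libraries). CSLD2 was at 78.1, 95.4 and 101 normalized CPM in the mutant libraries against 62.8, 55.8 and 84 in wild type (log2 fold change 0.44 with SE 0.19, adjusted p = 0.12). CSLE1 was at 24.2, 19.9 and 15 in the mutant libraries against 23.8, 21 and 23.7 in wild type (log2 fold change -0.21 with SE 0.19, adjusted p = 0.43). CSLE2 was at 30.5, 21.6 and 21 in the mutant libraries against 19.8, 23.5 and 22.1 in wild type (log2 fold change 0.16 with SE 0.18, adjusted p = 0.52). CSLH1, of a branch that makes mixed-linkage glucan in barley, was at 10.9, 4.72 and 4.67 in the mutant libraries against 6.58, 5.92 and 7.46 in wild type (log2 fold change 0.027 with SE 0.35, adjusted p = 0.96). CSLE1 overlaps OS09G0477900 in the table, which had 448 counts beside 3058 for CSLE1.

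The 3 xyloglucan genes outside the CSL family were all above wild type in every mutant library, as were 25.3% of all tested features. The test called 2 of them (66.7% called, beside 31.2% of all tested features). XTH8 (OS08G0237000, chromosome 8, 8328017 to 8329241), an enzyme that cuts and rejoins xyloglucan chains, was at 87.1, 107 and 152 normalized CPM in the mutant libraries against 65.6, 49.6 and 76.3 in wild type, a 1.81-fold rise (log2 fold change 0.85 with SE 0.25, adjusted p = 0.033). It passed in 1 of the 6 fits that left out a library, the one without mutant library 1, and had adjusted p of 0.053 to 0.11 in the others. The galactosyltransferase GT19 (OS10G0553600, chromosome 10, 21721801 to 21723246) was at 2.66, 2.86 and 3.58 in the mutant libraries against 1.3, 1.3 and 0.753 in wild type (a 2.73-fold rise, log2 fold change 1.45 with SE 0.33, adjusted p = 0.013). MUR3 (OS03G0144800, chromosome 3, 2486920 to 2489480), described by the name of an enzyme that in Arabidopsis adds galactose to xyloglucan, was at 25.3, 26 and 28 in the mutant libraries against 13.6, 19 and 22 in wild type and was not called (log2 fold change 0.54 with SE 0.19, adjusted p = 0.059).

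None of the 3 xylan genes was called by edgeR or by the DESeq2 test, and 1 of them, CHIB3H-H, had an unadjusted p under 0.05. CHIB3H-H (OS11G0701100, chromosome 11, 28730171 to 28731320), described as xylanase inhibitor protein 2 and of a family that blocks fungal xylanases, had the highest length-scaled level of all members in wild type. It was at 60.6, 332 and 742 normalized CPM in the mutant libraries against 1563, 1478 and 1363 in wild type (log2 fold change -1.96 with SE 0.73, adjusted p = 0.076), with all mutant libraries below wild type and a wide spread among them. Mutant library 1 was lowest and library 3 highest, as for the storage protein share, and a link between these was not tested. Without mutant library 1 or 3 it was called lower (log2 fold change -1.45, adjusted p = 0.017, and -2.92, adjusted p = 0.012). RIXI, xylanase inhibitor protein 1 on the same stretch of chromosome 11, had only 20, 18 and 24 counts in the mutant libraries against 5, 14 and 26 in wild type. In normalized CPM RIXI was at 0.502, 0.477 and 0.818 in the mutant libraries against 0.406, 1.13 and 1.78 in wild type (log2 fold change -0.91 with SE 0.55, adjusted p = 0.24). UDP-glucuronate:xylan alpha-glucuronosyltransferase 2 (OS03G0184300), named for adding glucuronic acid to xylan, was at 15.8, 8.69 and 8.07 normalized CPM in the mutant libraries against 12, 7.13 and 8.21 in wild type (log2 fold change 0.25 with SE 0.31, adjusted p = 0.57).

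The mutant libraries were alike for some expansins and far apart for others. EXPA10 and EXPA13 were 0.937 and 0.899 times as high in mutant library 1 as in library 3, whereas EXPB3, EXPA2, EXPB6 and EXPB11 were 4.18, 4.65, 3.86 and 7.28 times as high. Mutant library 1 was the highest and library 3 the lowest of the mutant libraries in 17 of 38 tested members, beside 30.1% of all tested features. These members included CESA4, CESA7 and CESA9 and also CSLD4, and their ratio of library 1 to library 3 was 3.18, 2.81, 3.16 and 2.5. The genes named in this paragraph were chosen after their values were seen, and what sets the mutant libraries apart was not tested.

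The members that did not pass the filter were 19 expansin A, 8 expansin B, 1 expansin-like and 4 CSL genes. Of these 32, 8 had no counts in any library (EXPA3, EXPA26, EXPA27, EXPA32, EXPB9, EXPB10, EXPB13 and CSLD5). Rows of neighbouring genes had few counts, most of them in the mutant, where the same level gives more counts. They were EXPA12, EXPA18, EXPA19 and EXPA20 within 39040 bases of chromosome 3, and EXPB10, EXPB13 and both EXPB1b features within 15419 bases of the same chromosome. EXPA12 had 4, 15 and 6 counts in the mutant libraries against 0, 1 and 0 in wild type. EXPA19 had 12, 12 and 2 counts in the mutant libraries against 0, 0 and 0 in wild type and was called higher when mutant library 3 was left out (adjusted p = 0.028), but not by edgeR without the filter (0.078) or by DESeq2 (0.084). EXPA1 had 52, 4 and 2 counts in the mutant libraries against 0, 0 and 0 in wild type and was called higher by DESeq2 (adjusted p = 0.023) but not by edgeR without the filter (0.16). EXPA16 had 45, 28 and 6 counts in the mutant libraries against 1, 2 and 0 in wild type. It was called higher by DESeq2 (adjusted p = 0.031) and when mutant library 3 was left out (0.013), but not by edgeR without the filter (0.072). EXPA29 went the other way, with 7, 3 and 3 in the mutant libraries against 10, 5 and 20 in wild type, and was called lower without the filter (log2 fold change -2.66, adjusted p = 0.03) and by DESeq2 (0.0036).

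Other wall genes, taken by words in the description, are given for context, as mean ± SD (n = 3) of the mutant against wild type. Over all tested features 15.8% were called higher and 15.4% lower in the mutant. Enzymes that make nucleotide sugars for wall polymers were mostly higher: of 7 tested 5 rose and 1 fell (median log2 fold change 1.08, beside 0.059 for all features). UAM3, a UDP-arabinopyranose mutase that supplies arabinose units, was higher (51.5 ± 13.8 against 6.47 ± 1.26 normalized CPM, log2 fold change 2.99, SE 0.25, adjusted p = 2.9e-04), as was the UDP-glucose dehydrogenase UGD4 (23.2 ± 4.87 against 9.66 ± 0.527 normalized CPM, log2 fold change 1.27, SE 0.19, adjusted p = 0.0024). Of 5 tested COBRA-like genes 4 rose and 1 fell, and 1 of the rises, BC1LP1, passed the filter through the mutant libraries alone. BC1L9 had the smallest adjusted p (15.6 ± 1.9 against 6.12 ± 1.02 normalized CPM, log2 fold change 1.34, SE 0.19, adjusted p = 0.002), and BC1, which rice stems need for strength, rose too (12.7 ± 3.58 against 6.29 ± 1.89 normalized CPM, log2 fold change 1.02, SE 0.30, adjusted p = 0.035). BC1L6, the COBRA-like gene with the highest mean level in both lines, was the one that fell (51.1 ± 20.0 against 98.3 ± 23.3 normalized CPM, log2 fold change -0.94, SE 0.31, adjusted p = 0.0498). The summed level of the COBRA-like list was 128 ± 15.9 against 147 ± 23.7 normalized CPM. Of 11 tested endoglucanases 5 rose and 1 fell, and 2 of the rises, GLU8 and the endoglucanase OS02G0733300, passed the filter through the mutant libraries alone. GLU3 was among the other rises (5.74 ± 0.677 against 1.6 ± 0.261 normalized CPM, log2 fold change 1.84, SE 0.24, adjusted p = 0.0015), while GLU1 fell (61.7 ± 29.4 against 216 ± 5.09 normalized CPM, log2 fold change -1.81, SE 0.32, adjusted p = 0.0049). GLU8 was at 2.64, 1.7 and 0.852 normalized CPM in the mutant libraries against 0.0812, 0 and 0 in wild type.

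CSLA1, the 1 glucomannan synthase of its list, rose (37.8 ± 4.95 against 14.5 ± 2.0 normalized CPM, log2 fold change 1.38, SE 0.16, adjusted p = 9.7e-04). None of the 3 tested mixed-linked glucan synthases was called by edgeR (1 at an unadjusted p under 0.05, CSLF2, median 0.67). CSLF6, the main such synthase of cereals, was at 102, 122 and 133 normalized CPM in the mutant libraries against 121, 95.1 and 169.7 in wild type (log2 fold change -0.11, adjusted p = 0.75). Of 14 genes described as a glucuronosyltransferase or xylosyltransferase 4 rose and 1 fell (35.7% called, beside 31.2% of all tested features, median 0.28). Such enzymes include those that build xylan, but the list also holds enzymes of other glycans, and which of them act on xylan was not tested. The glucuronosyltransferase OS05G0559600 fell (37 ± 8.78 against 119 ± 12.3 normalized CPM, log2 fold change -1.68, SE 0.20, adjusted p = 0.001) and OS01G0926600 rose (log2 fold change 0.73, adjusted p = 0.0059). Of 8 tested pectin genes 1 rose and 2 fell (37.5% called). The rise, OS01G0254300, passed the filter through the mutant libraries alone, and 1 of the falls, OS01G0634600, through the wild-type libraries alone. The pectinesterase QRT1 fell (19.2 ± 16.1 against 105 ± 13.2 normalized CPM, log2 fold change -2.45, SE 0.58, adjusted p = 0.016). OS01G0634600, a putative pectinesterase, was at 0, 0 and 0.136 normalized CPM in the mutant libraries against 4.14, 2.19 and 4.31 in wild type. Of 6 tested laccases 1 rose (16.7% called), LAC7 (log2 fold change 0.54, adjusted p = 0.016), and LAC19 was not called (log2 fold change 1.14, adjusted p = 0.26). The callose synthase and fasciclin-like words matched no feature.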

How the data were processed

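The authors deposited 1 table with read counts per feature (whole numbers, not normalized) and FPKM (counts scaled to feature length and library total) for each of 6 libraries, per the file headers. Per the submitters' processing notes, Bowtie 0.12.2 was used. Which tool counted the reads, whether by strand, and on which genome build is not given in the sources used here. Coordinates are those of the table. Near-identical or overlapping genes are uncertain.

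Counts were tested with edgeR 4.0.16 in R 4.3.3 (filterByExpr, TMM, glmQLFTest, line as the only term) over 22937 features, with Benjamini-Hochberg adjustment. Each SE was derived from the fold change and its F statistic (size of the log2 value over root F). Levels between genes use the deposited FPKM divided by the TMM factor. Calculations were tested on simulated data with equal base levels in both lines, which could not test the scaling between the lines. Alternatives used DESeq2 1.42.0 and limma 3.58.1, and tables were handled in Python 3.11.15 (pandas 2.3.3).

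The members and lists were chosen with earlier results of these data known. Named with values were all CESA genes and, in each other subfamily, the 6 tested members with the smallest adjusted p and the 3 with the highest length-scaled level. EXPB14, untested members and some genes of the other wall lists (BC1, BC1L6, GLU1, GLU8, CSLF6, QRT1) were named after their values were seen. Alternatives were a replicate block, other scalings, filters, thresholds and tools, and leaving out each library.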

Additional observations from a re-analysis of the deposited data

How the results depend on the processing

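The counts given in the report are 14 members higher and 4 lower, 5 and 1 for expansin A, 4 and 0 for expansin B, 0 and 3 for CESA, 2 and 0 for CSL, 2 and 0 for xyloglucan and 0 and 0 for xylan, among 3619 features higher and 3529 lower. Scaling moved the calls most. With total-count scaling 16481 features were called higher and 863 lower, and the members 30 and 0, with 0 expansin A lower, CESA 7 higher and 0 lower, CSL 6 higher and xylan 1 higher. With limma on log2(FPKM + 1) these were 14576 and 868 features, members 27 and 0, expansin A 0 lower, CESA 7 and 0, CSL 5 and xylan 1. At an adjusted p under 0.01 there were 1605 and 1759 features, 9 and 1 members, 2 expansin B, 0 CESA and 0 xyloglucan. CESA called higher numbered 2 with the DESeq2 Wald test, 1 without the low-count filter, 1 at a mean of at least 5 CPM and 1 with the replicate block. CESA called lower numbered 1 without the filter, and expansin A called lower 2 without the filter and 2 with DESeq2. Under DESeq2 size factors in edgeR the counts stayed within 1.5 times.

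With each library left out in turn, features called higher ran from 2003 to 4040 and lower from 2009 to 4288, members higher from 11 to 17 and lower from 1 to 8, expansin A higher from 5 to 7 and lower from 1 to 2, expansin B higher from 2 to 4 and lower from 0 to 1, CESA higher from 0 to 2 and lower from 0 to 3, CSL higher at 2 each time, xyloglucan higher from 1 to 2 and xylan lower from 0 to 1. The directions that turned among named members are given next, and the cause was not tested. Under total-count scaling and limma in turn the log2 fold change was 0.44 and 0.41 for CESA5, 0.72 and 0.66 for CESA2, 0.90 and 0.86 for CESA1, 1.05 and 0.80 for CSLE1, 0.19 and 0.17 for EXPA5, 1.10 and 0.78 for EXLA4, and 0.27 for RIXI under the first. CSLH1 was at -0.087 with the replicate block and -0.0022 with DESeq2 size factors. With 1 library left out the log2 fold change ran from -0.050 to 0.13 for CESA3, -0.029 to 0.24 for CSLE2, -0.50 to 0.24 for CSLH1, -0.31 to 1.01 for EXPB8, -0.15 to 0.17 for EXLA1, -0.57 to 0.023 for EXLA4 and -0.12 to 0.49 for the xylan glucuronosyltransferase, genes not called in the report.

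The log2 difference between lines in expansin per CESA, 1.22 with FPKM, was 1.73 with counts, 0.77 without EXPB4 and 1.13 to 1.28 with a library left out. For expansin B per CESA it was 2.50, 2.69, 2.35 and 2.41 to 2.56. CESA4 per CESA7 plus CESA9 stayed at -2.64 to -2.11. These settings were added after seeing the data. The replicate numbers share only a number: the deviations of same-numbered libraries correlated at 0.07, -0.04 and -0.03, and not every library correlated best with its own number. The replicate block gave 15 members higher and 3 lower, and 3001 and 3047 features. Depth limits the members with few counts, such as EXPB14 and RIXI.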
